A study of Mus musculus with 12 samples.

Results

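The genes described here are the 10 that take the retinoic acid pathway through its main steps, from uptake of retinol (Stra6) and synthesis (Rdh10, Aldh1a2) to the return of retinaldehyde to retinol (Dhrs3), breakdown (Cyp26a1, Cyp26b1, Cyp26c1), binding inside the cell (Crabp1, Crabp2) and response (the receptor Rarb). They were taken by gene symbol, each symbol matched 1 Ensembl gene, and they are 10 of the 55141 genes in the count table. The samples were gastruloids, clumps of mouse embryonic stem cells grown so that they lay down a body axis in culture, all from 129/SVEV cells, all given a pulse of the Wnt agonist CHIR 99021 and all collected at 120 h after seeding. They were embedded at 72 h or at 96 h in a dextran-based hydrogel at either 1.0 mM or else 1.5 mM (the concentration of reactive groups, a higher value giving a stiffer gel), which gives 4 groups of 3 libraries of bulk poly-A RNA. Each library pooled the gastruloids of 1 condition and replicate, so gastruloids embedded at 72 h were also in gel for longer, and embedding time and time in gel cannot be told apart. In bulk RNA, fewer cells of a type and less RNA per cell cannot be told apart either.

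Retinoic acid is made from vitamin A by stepwise oxidation. Rdh10 oxidises retinol to retinaldehyde, a step that Dhrs3 reverses, and Aldh1a2 oxidises retinaldehyde to retinoic acid in the trunk mesoderm of the embryo. The Cyp26 enzymes, cytochrome P450 proteins, oxidise retinoic acid and so clear it, Cyp26a1 above all at the posterior end of the elongating axis. The signal acts through nuclear receptors of the Rar and Rxr families, which bind paired DNA motifs near target genes, among them Cyp26a1, Rarb and anterior Hox genes. Stra6 carries retinol into the cell, and the Crabp proteins hold retinoic acid in the cytoplasm.

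The paired motif is shown for the 2 members whose promoter held one, because both genes are textbook direct targets of the receptors and their levels are compared here. RefSeq windows from 250 bases before to 50 bases after the start (GRCm38.p6) were at hand for 8 of the 10 members, all but Rdh10 and Crabp2. They were searched on both strands for 2 copies, in the same orientation, of a receptor motif of 6 bases, spelled AGGTCA in its best known form, with AGTTCA as a first variant, GGGTCA as another and GGTTCA as the last. The copies had to lie 5 bases apart (DR5) or 2 bases apart (DR2). The Cyp26a1 sequence lies at chr19:37697771-37697797 on the plus strand, just upstream of the RefSeq start at 37697808, and its repeat reads on the opposite strand. The Rarb sequence lies at chr14:16575508-16575534 on the minus strand, upstream of the RefSeq start at 16575476. It overlaps an untranslated region of 2 GENCODE transcripts. Both are printed 5′ to 3′ on the gene's strand, with the repeated motif in capitals.
Cyp26a1: aaagaTGAACTttgggTGAACTaattt
Rarb: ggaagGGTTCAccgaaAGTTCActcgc
No window of the other 6 members held a DR5 and no window of the 8 held a DR2, some genes having several windows. Over all RefSeq windows of this length 0.0974% held a DR5, 0.268% a DR2 and 43.7% at least 1 single motif. A match is a description of these letters, not a measured binding site.

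Sequencing depth was even, with 23011791 to 27609422 counts per library, of which mitochondrial genes took 1.68% to 3.02% and were left out. The labelled tissue was checked by the primitive streak and tailbud gene T (69.2 to 290 CPM, counts per 1000000 counts), the somite gene Meox1 (65.0 to 402 CPM) and the neural gene Sox2 (18.0 to 37.5 CPM), all present in every library. Replicate 1 of the 72 h, 1.5 mM group stood apart from its replicates, with 6.12% of its counts in 1 gene against 0.875% to 4.21% in the other libraries, so results in that gel are also given without it. Replicate 2 of the 96 h, 1.5 mM group came next, at 4.21% against 1.52% and 0.928% in its own group. Results of lists are not given without that library.

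Compared per transcript length, on the deposited FPKM scale, Crabp1 was the most abundant member in every group, with group means of 142 to 194. Aldh1a2 followed with means of 29.1 to 40.3 and Rdh10 with 23.6 to 26.7, and the libraries of these 2 genes overlapped in both 1.5 mM groups but in neither 1.0 mM group. Cyp26a1 and Crabp2 came next and changed places with embedding time. After 72 h embedding mean FPKM was 14.1 in 1.0 mM and 13.9 in 1.5 mM for Cyp26a1 against 12.7 and 9.00 for Crabp2, with libraries that overlapped in the softer gel only. After 96 h embedding it was 7.78 and 8.93 for Cyp26a1 against 20.7 and 18.3 for Crabp2, and the libraries did not overlap in either gel. Stra6 (means 3.23 to 4.81) was lower still, Dhrs3 and Cyp26b1 were below 1 FPKM in every group, and Cyp26c1 was near the floor. Cyp26a1 made up 95.6% to 98.9% of the summed FPKM of the 3 Cyp26 genes, and Crabp1 86.7% to 94.5% of that of the 2 Crabp genes. Rarb is listed at 0 FPKM in 10 of 12 libraries although every library held 339 to 621 of its counts, so its level is given from the counts, at 2.87 to 4.91 CPM per kb of merged exon. That level is uncertain too, because in the GENCODE annotation Rarb shares 1793 of its 5265 exon bases with Top2b on the opposite strand, and whether the counting used strand is not stated. No other member shares exon bases with another gene.

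**Figure D1:**
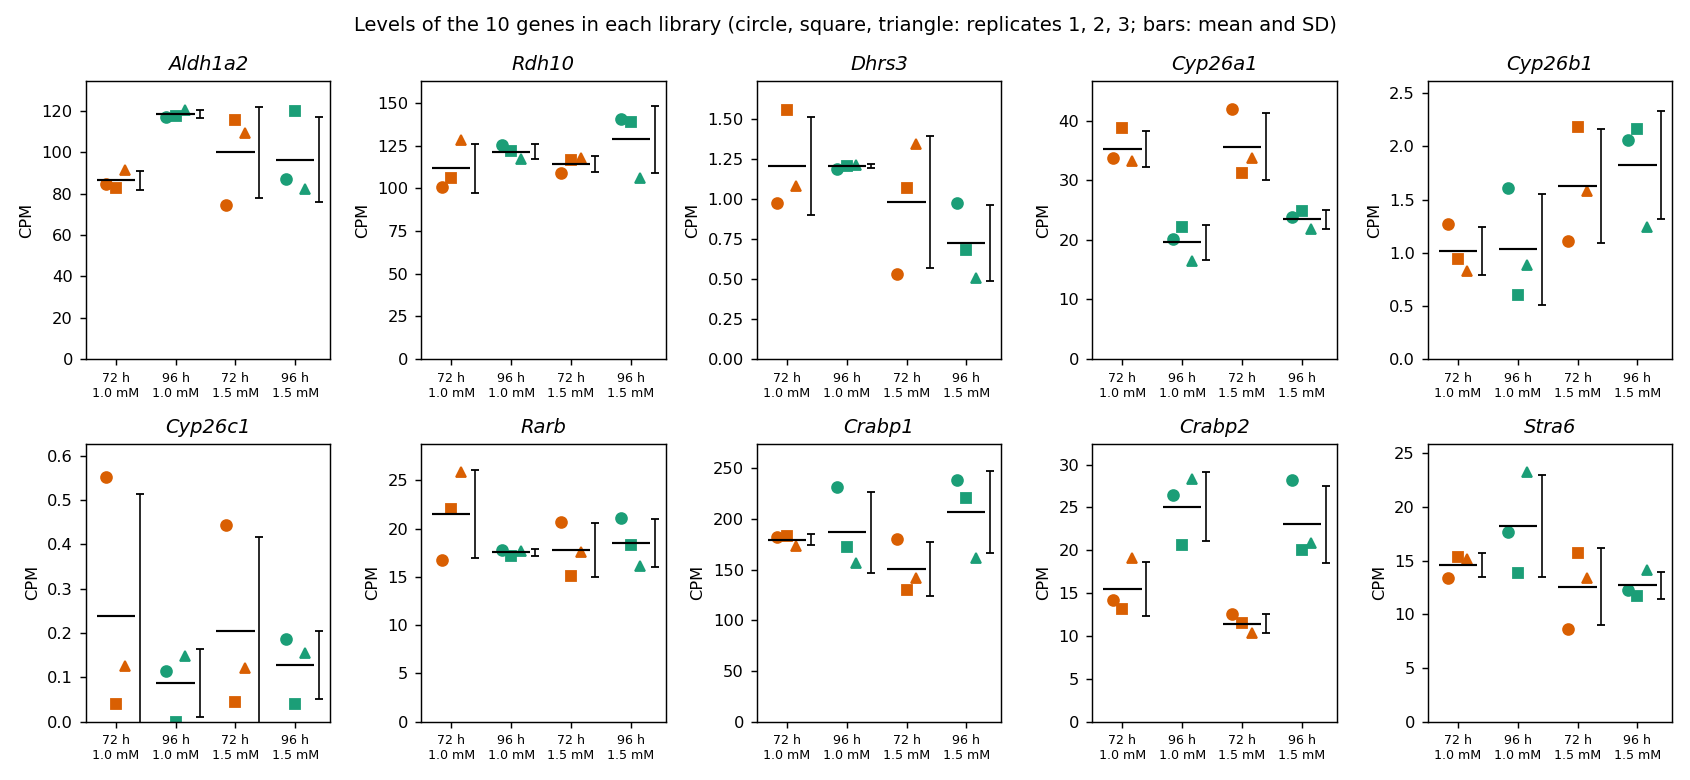
Level of each of the 10 genes in CPM (vertical axis, linear, own scale per gene) in the 4 groups, with circles, squares and triangles for replicates 1, 2 and 3, orange for 72 h and green for 96 h embedding, a line for the mean and a bar for the SD (n = 3, ended at 0 for Cyp26c1). Cyp26a1 sits between 31.3 and 41.9 CPM in the 72 h libraries and between 16.4 and 24.9 CPM in the 96 h libraries, and Crabp2 is the other gene whose 6 earlier and 6 later libraries do not overlap.

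Embedding time was compared first in the 1.0 mM gel, to ask whether earlier confinement went with a different state of the pathway. Of the 9 members above the count filter (Cyp26c1 was not), 1 was higher and 2 were lower after 72 h embedding at an adjusted p below 0.05, where 9.24% of all 15763 genes tested passed (5.97% higher and 3.27% lower). In the 1.5 mM gel 1 was higher and 1 was lower, where 19.3% of 15683 genes passed (10.4% higher and 8.98% lower). Fold changes below are edgeR log2 values with their SE, positive where the level was higher after 72 h than after 96 h embedding, and adjusted p-values are Benjamini-Hochberg values over all genes tested. The 72 h libraries lay all above or all below the 96 h libraries for 3 members in 1.0 mM and 2 in 1.5 mM, against 28.4% and 39.9% of all genes tested. The median log2 difference of the tested members was -0.050 in 1.0 mM and -0.061 in 1.5 mM, against -0.0054 and -0.0052 over all genes. A gene is called differentially expressed (DE) where the adjusted p is below 0.05 and the log2 difference exceeds 1 in size. By that rule no member was DE in 1.0 mM (background 4.3%) and 1 was in 1.5 mM (background 3.18%). In 1.0 mM the count of 0 compares with 3 members and 22.9% of all genes at an unadjusted p below 0.05 (3 members and 35.1% in 1.5 mM), and DESeq2 and limma-voom also called none.

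Aldh1a2 (chr9:71215789-71296243, plus strand, mm10), the synthesis enzyme, was lower after 72 h than after 96 h embedding in the softer gel and did not pass in the stiffer one. In 1.0 mM its level was 84.5, 83.0 and 91.6 CPM in the libraries embedded at 72 h and 117, 117 and 121 CPM in those embedded at 96 h. Every 72 h library lay below every 96 h library, and the difference of -0.45 ± 0.0741 (SE) had an adjusted p of 0.00362. In 1.5 mM the libraries read 74.6, 116 and 110 CPM after 72 h and 87.2, 120 and 82.2 CPM after 96 h, and the groups overlapped. The low value of the first group was replicate 1, the library that stood apart, and the difference was 0.047 ± 0.176 (adjusted p = 0.875, 95% interval -0.35 to 0.44), or 0.22 without it (adjusted p = 0.245). The call in 1.0 mM was kept in 16 of 17 other settings and lost where all 12 libraries shared 1 estimate of the spread (adjusted p = 0.0633).

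Rdh10, which supplies the retinaldehyde, did not pass in either gel. In 1.0 mM it read 101, 106 and 128 CPM after 72 h and 126, 122 and 117 CPM after 96 h (log2 difference -0.12, adjusted p = 0.510, 95% interval -0.32 to 0.091). In 1.5 mM it read 109, 116 and 118 CPM against 141, 139 and 106 CPM (-0.17, adjusted p = 0.265, 95% interval -0.40 to 0.058). The low 96 h library there was replicate 3, and without it the difference was -0.29 with an adjusted p of 0.0438. Dhrs3, the enzyme of the reverse step, held only 12 to 38 counts per library, 0.506 to 1.55 CPM, and its intervals were wide (-0.61 to 0.63 in 1.0 mM, -0.45 to 1.33 in 1.5 mM).

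Cyp26a1 (chr19:37697798-37701536, plus strand), the most abundant breakdown enzyme here, was higher after 72 h embedding in both gels. In 1.0 mM it read 33.8, 38.8 and 33.3 CPM after 72 h and 20.2, 22.2 and 16.4 CPM after 96 h. The stiffer gel gave 41.9, 31.3 and 33.7 CPM after 72 h and 23.8, 24.9 and 21.8 CPM after 96 h. All 6 libraries of the earlier embedding lay above all 6 of the later one. The difference was 1.81-fold in 1.0 mM (log2 0.85 ± 0.126, adjusted p = 0.00206) and 1.51-fold in 1.5 mM (log2 0.60 ± 0.116, adjusted p = 0.0100), below the log2 threshold of 1 in each. Without replicate 1 of the 72 h, 1.5 mM group, the highest library, the second value was 0.46 (adjusted p = 0.00509). The call held in all 17 other settings in 1.5 mM and in 16 of 17 in 1.0 mM, the exception being FPKM values with no filter on low values (adjusted p = 0.0531).

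The other Cyp26 genes were scarce. Cyp26b1 held 15 to 55 counts per library and read 1.27, 0.939 and 0.832 CPM after 72 h and 1.61, 0.602 and 0.882 CPM after 96 h in 1.0 mM. The 1.5 mM libraries read 1.11, 2.18 and 1.58 CPM against 2.06, 2.17 and 1.25 CPM. Both pairs of groups overlapped, with 95% intervals of -0.86 to 0.81 and -0.88 to 0.53 for the log2 difference. Cyp26c1 had 13, 1 and 3 counts after 72 h and 3, 0 and 4 after 96 h in 1.0 mM, and 10, 1 and 3 against 5, 1 and 4 in 1.5 mM, so no difference was detectable at this depth.

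Crabp2 (chr3:87948666-87953376, plus strand), one of the retinoic acid binding proteins and known for handing the ligand to the receptors, moved the other way from Cyp26a1. In 1.0 mM it read 14.2, 13.2 and 19.1 CPM after 72 h and 26.4, 20.6 and 28.3 CPM after 96 h (log2 difference -0.69 ± 0.161, adjusted p = 0.0208). In 1.5 mM it read 12.5, 11.5 and 10.3 CPM after 72 h and 28.2, 20.0 and 20.8 CPM after 96 h, 2.02-fold lower after the earlier embedding (log2 -1.01 ± 0.148, adjusted p = 0.00380). The groups did not overlap in either gel. The 1.0 mM call was lost in 6 of 17 other settings. They were without replicate 2 of the 72 h group (adjusted p = 0.0523), without replicate 1 (0.0718) or replicate 3 (0.0996) of the 96 h group, and on FPKM values at 3 settings (0.0609 to 0.142). In 1.5 mM the difference lay at the DE threshold, ranging from -1.10 to -0.84 as single libraries were left out. Without replicate 3 of the 72 h group or replicate 1 of the 96 h group it no longer exceeded 1 in size, and on FPKM values with no filter the adjusted p was 0.0501. Without replicate 1 of the 72 h group it was -1.09 (adjusted p = 0.00123).

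Crabp1, which binds the same ligand and was the most abundant member, did not pass in either gel. It read 182, 183 and 174 CPM after 72 h and 232, 172 and 156 CPM after 96 h in 1.0 mM, with overlap (-0.050, adjusted p = 0.853). Its 1.5 mM values were 180, 130 and 142 CPM against 239, 221 and 161 CPM (-0.46 ± 0.155, adjusted p = 0.0648), where only the highest 72 h library, replicate 1, and the lowest 96 h library, replicate 3, kept the groups from separating. Other settings changed this. DESeq2 gave -0.46 with an adjusted p of 0.0112, and with no low-count filter the adjusted p was 0.000238. With the replicate number as a block the difference was -0.45 (adjusted p = 0.0130), without the 72 h replicate 1 it was -0.61 (adjusted p = 0.00866), and without the 96 h replicate 3 the adjusted p was 0.0338.

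Stra6 and Rarb, at the 2 ends of the pathway, did not pass between embedding times in either gel. Stra6, the retinol transporter, read 13.3, 15.3 and 15.1 CPM after 72 h and 17.6, 13.8 and 23.2 CPM after 96 h in 1.0 mM (-0.32, adjusted p = 0.304). Its 1.5 mM values were 8.66, 15.7 and 13.4 CPM against 12.3, 11.7 and 14.1 CPM (-0.017, adjusted p = 0.959). Rarb carries the same kind of paired motif as Cyp26a1, printed above. It read 16.7, 22.0 and 25.8 CPM after 72 h and 17.8, 17.1 and 17.7 CPM after 96 h in 1.0 mM (log2 0.30 ± 0.147, adjusted p = 0.256, 95% interval -0.023 to 0.62). The 72 h libraries were the more spread, and without their lowest, replicate 1, the difference was 0.45 with an adjusted p of 0.0452. In 1.5 mM Rarb read 20.7, 15.1 and 17.6 CPM against 21.1, 18.3 and 16.1 CPM (-0.061, adjusted p = 0.792, 95% interval -0.38 to 0.26).

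With both gels in 1 fit, Cyp26a1 was higher after 72 h embedding (log2 0.72 ± 0.0920, adjusted p = 5.35e-05) and Crabp2 was lower (-0.85 ± 0.122, adjusted p = 0.000143), and each call held in all 22 other settings. They were the 2 of 9 members that passed, where 31.1% of 16388 genes did (16.2% higher and 14.8% lower), and neither was DE, where 4.66% of genes were. Their libraries were also the ones that did not overlap over all 12 (background 11.8%), and 3 members had an unadjusted p below 0.05 (background 42.5%). Aldh1a2 stood at -0.20 (adjusted p = 0.220) and Crabp1 at -0.26 (adjusted p = 0.115, 0.0489 with the replicate block, 0.0431 without replicate 3 of the 96 h, 1.0 mM group). Rdh10 stood at -0.14 (adjusted p = 0.141), and passed without replicate 3 of the 72 h, 1.0 mM group (0.0439) or replicate 3 of the 96 h, 1.5 mM group (0.0376). Dhrs3, Cyp26b1, Rarb and Stra6 lay between -0.17 and 0.21, with adjusted p-values of 0.393 to 0.779.

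**Figure D2:**
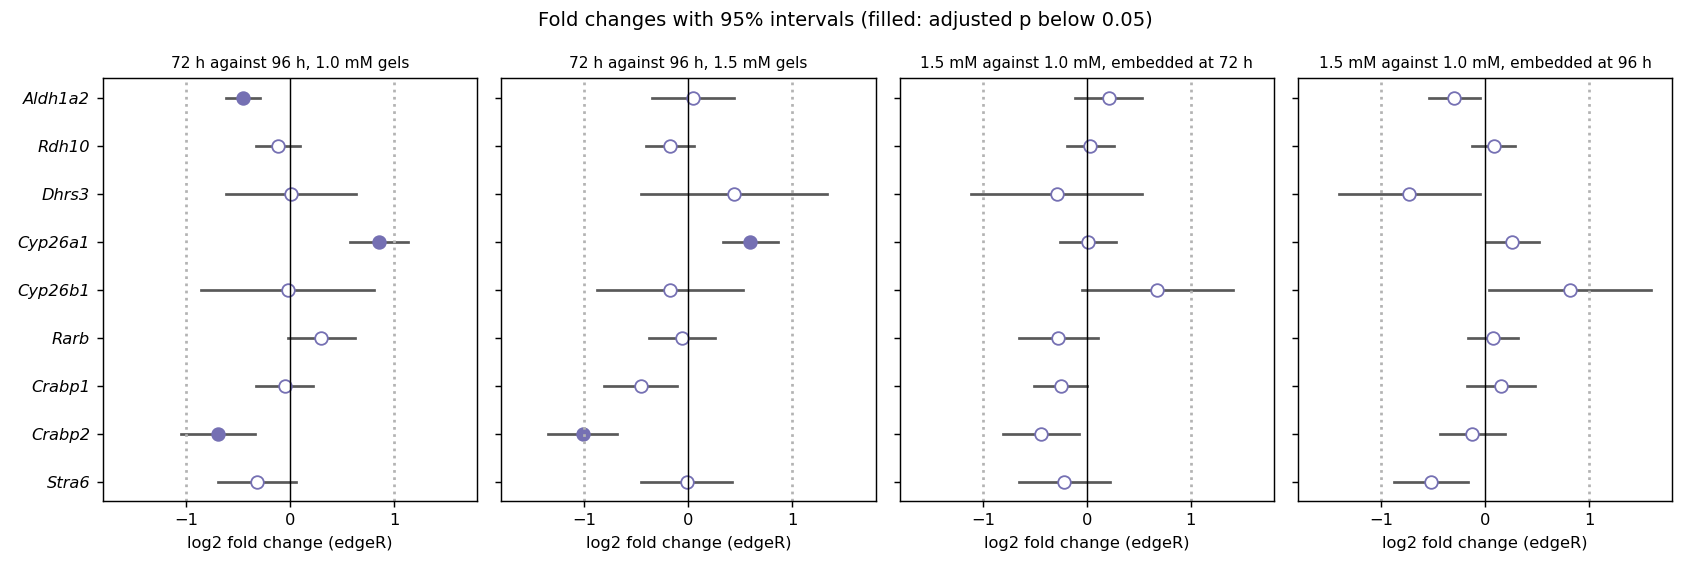
Log2 difference (horizontal axis) of the 9 tested members in the 4 pairwise comparisons, with 95% intervals; filled points passed an adjusted p of 0.05 in edgeR and dotted lines mark -1 and 1. Filled points appear for Aldh1a2, Cyp26a1 and Crabp2 between embedding times in 1.0 mM and for Cyp26a1 and Crabp2 in 1.5 mM, and for no member between gels.

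Synthesis and breakdown were also set against each other within each library, as the FPKM of Aldh1a2 divided by that of Cyp26a1. In 1.0 mM the ratio was 2.13, 1.79 and 2.31 after 72 h embedding and 5.02, 4.43 and 6.44 after 96 h. In 1.5 mM it was 1.49, 3.15 and 2.77 after 72 h and 3.17, 4.14 and 3.24 after 96 h. All 6 libraries embedded at 72 h had a lower ratio than all 6 embedded at 96 h, but in 1.5 mM the nearest libraries read 3.15 and 3.17. Cyp26a1 alone already separated these libraries, and in 1.5 mM mean Aldh1a2 FPKM was not lower after 72 h (33.3 against 31.4). The ratio of Rdh10 to Dhrs3 overlapped in both gels, at 26.4 to 48.1 against 42.4 to 65.6 in 1.0 mM and 44.1 to 121 against 68.3 to 115 in 1.5 mM. Each ratio compares 2 transcripts and says nothing of the amount of retinoic acid, which was not measured.

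**Figure D3:**
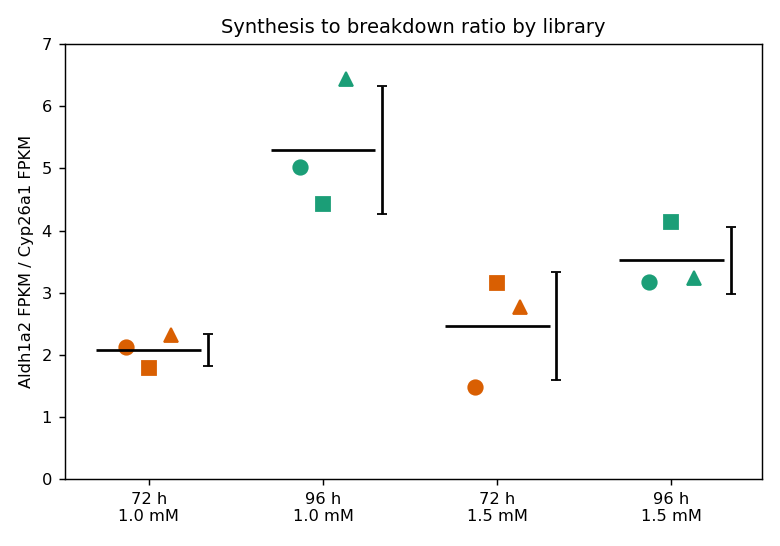
Ratio of Aldh1a2 FPKM to Cyp26a1 FPKM (vertical axis, from 0) in each of the 12 libraries, by group, with circles, squares and triangles for replicates 1, 2 and 3, a line for the mean and a bar for the SD (n = 3). The 72 h libraries lie between 1.49 and 3.15 and the 96 h libraries between 3.17 and 6.44.

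The second question was whether gel concentration, and with it stiffness, went with a difference at a given embedding time. In edgeR no member passed in either comparison, and neither did any other gene (background 0). By unadjusted p below 0.05 it was 1 member and 6.9% of 15563 genes after 72 h embedding, and 5 members and 9.95% of 15861 genes after 96 h. DESeq2 and limma-voom called no member either, against 12 and 0 of all genes after 72 h and 87 and 2 after 96 h. With the replicate number as a block no member passed after 72 h embedding, against 43 of all genes. After 96 h embedding 1 member passed with the block, Stra6 (-0.50, adjusted p = 0.0202), against 289 of all genes. After 72 h embedding the member with the lowest unadjusted p was Crabp2, at 12.5, 11.5 and 10.3 CPM in 1.5 mM against 14.2, 13.2 and 19.1 CPM in 1.0 mM, without overlap (-0.44 ± 0.163, adjusted p = 0.698). Libraries did not overlap for 11.1% of all genes there. The 95% intervals were -0.26 to 0.28 for Cyp26a1, -0.19 to 0.26 for Rdh10, -0.11 to 0.53 for Aldh1a2 and -0.51 to 0.0017 for Crabp1 (adjusted p = 0.704).

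After 96 h embedding Stra6 read 12.3, 11.7 and 14.1 CPM in 1.5 mM against 17.6, 13.8 and 23.2 CPM in 1.0 mM (-0.52 ± 0.164, adjusted p = 0.324, 0.0202 with the replicate block). Aldh1a2 was at 117 to 121 CPM in all libraries of the softer gel and at 82.2 to 120 CPM in the stiffer one (-0.30 ± 0.113, adjusted p = 0.438). Dhrs3 was the one gene without overlap here, where 15.5% of all genes had none, at 0.506 to 0.975 CPM in 1.5 mM against 1.19 to 1.21 CPM in 1.0 mM (-0.73 ± 0.311, adjusted p = 0.474). Cyp26b1 (0.82 ± 0.357, adjusted p = 0.484) and Cyp26a1 (0.26 ± 0.116, adjusted p = 0.486) had positive differences that did not pass. With both embedding times in 1 fit no member passed, where 0.0305% of genes did (0.0122% higher and 0.0183% lower in 1.5 mM) and 0.0061% were DE. No member was free of overlap over all 12 libraries (background 0.476%), and the 3 at an unadjusted p below 0.05 (background 12.7%) were Cyp26b1 (0.75, adjusted p = 0.243), Stra6 (-0.37, adjusted p = 0.294) and Crabp2 (-0.27, adjusted p = 0.367). These comparisons share libraries with those between embedding times.

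Whether the effect of embedding time differed between gels was tested by the interaction term, positive where the difference was larger in 1.5 mM. No member and no other gene passed in edgeR (background 0). The lowest p was that of Aldh1a2, 0.51 ± 0.209 (adjusted p = 0.953, 95% interval 0.061 to 0.95), and 1 of 9 members against 4.32% of genes had an unadjusted p below 0.05. DESeq2 called no member and 2 genes, and limma-voom none. So the pass of Aldh1a2 in 1.0 mM and not in 1.5 mM is not a shown difference between gels. The same holds for the DE call of Crabp2, with an interaction of -0.31 (95% interval -0.82 to 0.19), and for Cyp26a1, with -0.25 (95% interval -0.63 to 0.13).

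Beyond these 10 genes, the other receptors except Rxrg moved by small amounts. Rara, which pairs with Rxr partners on DR5 motifs, was lower after 72 h embedding in both gels (log2 -0.47, adjusted p = 0.00376 in 1.0 mM and -0.39, adjusted p = 0.0112 in 1.5 mM). In 1.5 mM Rxra (0.48, adjusted p = 0.00398) and Rarg (0.26, adjusted p = 0.0339) were higher and Rxrb (-0.25, adjusted p = 0.0417) was lower. In 1.0 mM these stood at 0.38 (adjusted p = 0.0667), 0.011 (0.965) and -0.22 (0.0795). Rxrg had the largest values, 1.05 (adjusted p = 0.139) and 1.17 (adjusted p = 0.0764), on 7 to 43 counts per library, and passed in neither gel alone. In all, 1 of 5 receptors fell in 1.0 mM (9.24% of all genes passed), and 2 rose and 2 fell in 1.5 mM (19.3%). With both gels in 1 fit 2 rose and 2 fell, where 31.1% of all genes passed. Of these, 1 that rose was DE (background 4.66%), also with DESeq2, limma-voom and the replicate block. No receptor but Rxrg exceeded 0.48 in size in either gel.

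The remaining enzymes, carriers and cofactors gave few calls, where 9.24% of all genes passed in 1.0 mM and 19.3% in 1.5 mM. Of 15 further genes of retinoid synthesis and storage 7 were tested, and none passed in 1.0 mM, while in 1.5 mM Rdh11 was higher (0.35) and Dgat1, which makes storage esters, was lower (-0.43). The alternative retinaldehyde dehydrogenases were close to absent, with 0 to 8 counts per library for Aldh1a1 and 2 to 17 for Aldh1a3. Of 7 transport and binding genes 5 were tested, and in 1.5 mM 1 was lower (2 with the replicate block, and 2 lower and 1 higher without the library that stood apart). Stra6l, a relative of Stra6, was lower after 72 h in both gels (-1.42, adjusted p = 0.0299 and -1.39, adjusted p = 0.0162), and Ttr, the plasma carrier transthyretin, was higher in 1.0 mM (2.84, adjusted p = 0.0116) with 0.98 in 1.5 mM (adjusted p = 0.277). None of 8 receptor corepressors and coactivators passed in 1.0 mM, and 3 rose in 1.5 mM, among them Ncoa2 (0.21) and Ncoa3 (0.34). DESeq2 called 0 of the 8 in 1.0 mM as well.

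Most of the tested genes known to respond to retinoic acid were lower after 72 h embedding. Of 17 on the list, anterior Hox genes and others such as Nr2f1, Cdx1 and Meis2, 16 were tested in 1.0 mM, where 11 fell and 1 rose. In 1.5 mM 10 of 14 tested fell and none rose. Over all genes tested 3.27% fell and 5.97% rose in 1.0 mM, and 8.98% fell and 10.4% rose in 1.5 mM. The median log2 difference was -1.09 in 1.0 mM and -1.03 in 1.5 mM, against -0.0054 and -0.0052 over all genes. By the DE rule 9 fell and 1 rose in 1.0 mM (background 4.3%) and 6 fell in 1.5 mM (background 3.18%). The 1.0 mM counts and median include Cdx1 (3 to 7 counts after 72 h against 19 to 27 after 96 h) and Olig2 (0 to 1 against 13 to 21). Both passed the count filter only through their 96 h libraries, so the filter itself favoured a fall and their calls add no support. With the replicate block 11 of 14 fell in 1.5 mM and 7 were DE, and without the library that stood apart 12 of 15 fell and 8 were DE. The last counts are not of the same genes, because the count filter let a further gene in once that library was out. The list holds genes that other signals also control, and it was drawn up with earlier results of these data known.

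Nr2f1, an orphan nuclear receptor, was lower after 72 h in both gels. It read 6.17 to 15.5 CPM after 72 h against 54.2 to 58.8 CPM after 96 h in 1.0 mM (-2.53 ± 0.264, adjusted p = 0.000270) and 7.39 to 13.1 against 47.2 to 73.4 CPM in 1.5 mM (-2.58 ± 0.211, adjusted p = 0.000546). Its relative Nr2f2 stood at -1.27 and -0.82 and passed in both gels. Among the Hox genes that pattern hindbrain and neck, those that fell in both gels included Hoxd4 (-2.83 and -2.12), Hoxa4 (-2.59 and -2.31), Hoxa3 (-1.64 and -1.30) and Hoxb4 (-1.15 and -1.13). Hoxa3 read 6.54 to 7.66 CPM after 72 h against 20.5 to 25.1 CPM after 96 h in 1.0 mM, and 6.35 to 9.20 against 16.8 to 21.1 CPM in 1.5 mM. Hoxb1 (0.31 and 0.0064) and Hoxb5 (0.21 and -0.97) did not pass in either gel. Hoxd4 shares 1154 of its 2948 exon bases with Gm28230 and 388 with Hoxd3 on the same strand, Hoxa3 shares 482 with Gm28308, Hoxa4 is listed at 0 FPKM in every library despite 6 to 90 counts, and antisense genes overlap the exons of Hoxd4, Hoxa4 and Hoxa3, so the split of their reads is uncertain. Cdx1 fell in 1.0 mM (-2.01, adjusted p = 0.0105) and was below the count filter in 1.5 mM. Gprc5a was DE in 1.5 mM (-1.11, adjusted p = 0.0214) and stood at -0.87 in 1.0 mM (adjusted p = 0.0790).

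Some members of the list went another way or were scarce, beside Hoxb1 and Hoxb5 above. Pax6, a neural gene, was higher after 72 h in 1.0 mM (1.24, adjusted p = 0.00472) and stood at 0.40 in 1.5 mM (adjusted p = 0.155). Olig2, a motor neuron progenitor gene, had 1 count in all over the 3 libraries of 72 h embedding in the softer gel against 13 to 21 per library after 96 h (adjusted p = 0.00169). In 1.5 mM, where it was not tested, it had 0 to 1 against 6 to 41. Stra8, a gene of germ cells, had 0 to 1 counts. Of the tested genes on the list 4 in each gel did not pass, and Cyp26a1 and Rarb, which also respond to retinoic acid, were not counted on it.

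**Figure D4:**
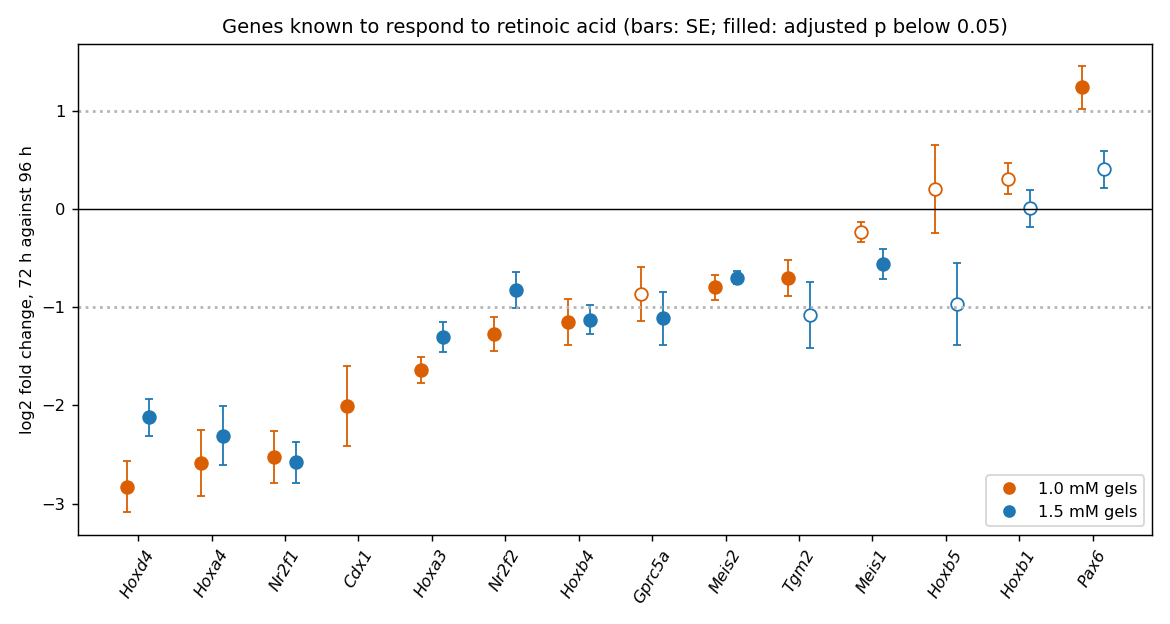
Log2 difference between embedding times (vertical axis, positive where higher after 72 h) of 14 genes known to respond to retinoic acid, in 1.0 mM (orange) and 1.5 mM gels (blue, not tested for Cdx1), with bars for the SE, filled points for an adjusted p below 0.05 and dotted lines at -1 and 1. Hoxd4, Hoxa4 and Nr2f1 lie below -2 in both gels, and Pax6 lies above 0. Olig2 and Stra8 are left out for their low counts.

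Of the 31 genes with a DR5 in any RefSeq window, 18 were in the table by symbol, and 7 were tested in 1.0 mM and 6 in 1.5 mM. Cyp26a1 was the only one of them to pass in each gel, 14.3% and 16.7% of those tested against 9.24% and 19.3% of all genes. With both gels in 1 fit the neuropeptide receptor gene Prokr2 passed too (1.27, adjusted p = 0.0229), which made 28.6% against 31.1% of all genes, so the share was near the background.

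Markers of some of the cell types that the gastruloids could hold differed with embedding time. Beside the list counts that follow, 9.24% of all genes tested passed in 1.0 mM and 19.3% in 1.5 mM. The somite list, cells that make retinoic acid in the embryo, was lower after 72 h for 6 of 6 genes in 1.0 mM and 3 of 6 in 1.5 mM (6 of 6 with the replicate block), with a summed level of 207 to 391 against 721 to 847 CPM and of 264 to 468 against 568 to 778 CPM. The list of cardiac and lateral mesoderm was higher for 7 of 7 genes in 1.0 mM (5 of 7 in DESeq2) and 4 of 7 in 1.5 mM (5 of 7 with the block). It summed to 434 to 717 against 66.5 to 179 CPM and to 361 to 599 against 180 to 325 CPM. In 1.5 mM 2 genes of that list were DE, 3 with the block and 1 without replicate 1 of the 72 h group.

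Naive embryonic stem cell genes fell for 3 of 5 tested in each gel. The count was 4 of 6 in 1.5 mM without the library that stood apart, where the count filter let a further gene in. The list summed to 14.9 to 21.3 against 31.7 to 43.9 CPM in 1.0 mM and to 13.5 to 16.9 against 24.9 to 28.8 CPM in 1.5 mM. Neural tube genes gave 2 higher and 1 lower in 1.0 mM and 1 each way in 1.5 mM, with list medians of -0.22 and -0.0036. They summed to 120 to 138 against 92.8 to 114 CPM and to 133 to 151 against 101 to 125 CPM, without overlap in either gel. Most of that sum was 1 gene, Irx3, with means of 83.1 against 52.2 CPM in 1.0 mM and 99.3 against 66.5 CPM in 1.5 mM. The endoderm list (2 higher, then 2 higher and 1 lower) and the neural crest and hindbrain list (1 each way, then 2 lower, with 1 more higher under the block) were mixed. Endothelium genes gave 1 higher in 1.0 mM and 1 of 6 lower in 1.5 mM (median -0.48), where the count was 3 lower with the replicate block and 4 lower, 3 of them DE with a median of -0.87, without replicate 1 of the 72 h group. Pax6 is on the neural tube list too and Hoxb1 on that of neural crest. In the posterior list T was higher after 72 h (1.17 and 1.42) and Fgf4 lower (-2.42 and -2.53) in both gels, and Nkx1-2 was lower in 1.0 mM (-2.29) with -0.90 in 1.5 mM (adjusted p = 0.198). With the replicate block 2 genes of that list rose in 1.5 mM instead of 1. The part of these cell types in the differences of Aldh1a2, Cyp26a1, Crabp2 and the responsive genes was not tested.

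The genes with the profile most like a member's were found by the root-mean-square difference of centred log2 CPM over the 12 libraries, among 16387 other genes. For Cyp26a1, whose own profile spread by 0.393 around its mean, they were Fev (0.0887), Tspan7 (0.114) and Schip1 (0.115). For Aldh1a2, with a spread of 0.249, they were Bhlhe22 (0.139), Gm4829 (0.139) and Gm10549 (0.140). For Crabp1, with a spread of 0.257, they were Gm6394 (0.102), Gm50218 (0.116) and Grin2c (0.123). The nearest gene thus tracked Cyp26a1 to within a smaller share of its spread than was so for Aldh1a2 or Crabp1, which is a description with no test.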

How the data were processed

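Poly-A RNA of 12 gastruloid libraries, 4 groups of 3 independent replicates as the study describes them, was sequenced paired-end from stranded libraries. The authors trimmed reads with cutadapt 4.4, aligned them to mm10 with STAR 2.7.10b and an Ensembl annotation of their own making, then deposited unnormalized counts for each gene beside FPKM values from Cufflinks 2.2.1.3. The strand setting of the counts is not given in the sources used here. Another deposited table holds the authors' own DESeq2 comparisons (log2 fold changes and adjusted p-values) and was not used.

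Mitochondrial genes were removed, and genes were filtered by group with filterByExpr (count of 10, summed count of 15) (edgeR 4.0.16 under R 4.3.3). Groups were compared by the quasi-likelihood test with TMM factors and Benjamini-Hochberg adjustment. CPM are counts per 1000000 after TMM scaling, and 95% intervals use the test's degrees of freedom. DESeq2 1.42.0 and limma 3.58.1 on counts, limma on log2(FPKM + 1), other filters, a replicate block and leaving out each library were alternatives. Scripts were tested on simulated data. In the 1.5 mM gel libraries with the same replicate number deviated together between embedding times (r = 0.226, 0.110 and 0.261 across genes). So did those compared between gels after 72 h embedding (r = 0.175, 0.213 and 0.0918). The number thus pairs libraries in both comparisons. The blocked value is given there where it changes a call on one of the 10 genes or the count of a list described. In 1.0 mM and between gels after 96 h embedding, where pairing is less clear, it is given only where it changes a call on one of the 10 genes. The 10 genes and all lists were chosen with earlier results of these data known. Text names all 10 genes, all receptors, the DE genes of the pathway lists, except that genes held back are counted in their list but not reported here, a few others chosen after their values were seen (Rdh11, Dgat1, Aldh1a1, Aldh1a3, Ncoa2, Ncoa3, Hoxb1, Hoxb5, Stra8, Prokr2), and the 3 nearest profiles to 3 members.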

Additional observations from a re-analysis of the deposited data

How the results depend on the processing

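Of the results recomputed, 1112 values kept direction and side of the threshold, 9 lost the call, 19 gained it and 43 changed sign, none of the last being called. Dropping the fold threshold gave 3 members in 1.0 mM, 2 in 1.5 mM and 2 across gels. The 1 DE member in 1.5 mM, Crabp2, became 0 on FPKM values at all 3 settings and ranged from 0 to 1 as single libraries were left out. Signs changed for Dhrs3 in 1.0 mM (limma-voom -0.017, replicate block -0.011, leave-one-out -0.22 to 0.14), Cyp26b1 in 1.0 mM (0.069, 0.029, -0.28 to 0.44, and 0.014 on log2(FPKM + 0.1)), Cyp26a1 between gels at 72 h (-0.026, -0.028 and -0.026 on FPKM at 3 settings, leave-one-out -0.13 to 0.0996) and the interaction of Dhrs3 (-0.011 on FPKM). Leaving out single libraries also turned the sign of Crabp1 in 1.0 mM (-0.17 to 0.13) and, in 1.5 mM, of Cyp26b1 (-0.43 to 0.032), Stra6 (-0.20 to 0.19), Aldh1a2 (-0.066 to 0.23) and Rarb (-0.19 to 0.048). It did so between gels for Rdh10 at 72 h (-0.032 to 0.15), Rarb at 96 h (-0.014 to 0.17), Crabp1 (-0.12 to 0.016) and Aldh1a2 (-0.12 to 0.032) at both times, for Cyp26b1 across gels (-0.22 to 0.064) and for the interactions of Cyp26b1 (-0.61 to 0.12) and Rdh10 (-0.17 to 0.053). The cause was not tested.

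Genes passing between gels ran from 0 in edgeR to 322 with no low-count filter at 72 h, from 0 to 333 at 96 h, and at both times from 0 on FPKM values to 512, with 5 in edgeR and 4 in limma-voom. The replicate block gave 43, 289 and 81, and DESeq2, whose adjusted p of NA was left out, 12, 87 and 215. The interaction gave 0 in edgeR, 2 in DESeq2, 5 with the block and 238 with no filter. With no filter Aldh1a2 (adjusted p = 0.00713) and Stra6 (0.00359) passed between gels at 96 h, Cyp26b1 (0.0416) and Stra6 (0.0163) at both times, Aldh1a2 the interaction (0.0130) and the time effect across gels (0.0111), and Crabp1 the time effect in 1.5 mM (0.000238) and across gels (0.000273). On FPKM values 245 to 632 genes passed between embedding times in 1.0 mM and 348 to 1180 in 1.5 mM, against 1457 and 3033. In 1.0 mM and between gels at 96 h the replicate numbers are no shown pairing (r from 0.0512 to 0.380). There the block changed 1 member's call, Stra6 between gels at 96 h (-0.50, adjusted p = 0.0202). Between gels at 72 h the same numbers deviated together (r = 0.175, 0.213 and 0.0918, against at most 0.0237 for unlike numbers). The block changed no member's call in that comparison. Counts of at most 55 per library, those of Dhrs3, Cyp26b1 and Cyp26c1, limit what could be seen for these genes.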
